A study of Homo sapiens with 6 samples.

Results

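Described here are 44 human genes that belong to interferon signalling or are known to be induced by interferon, in cultured 22Rv1 prostate cancer cells and in a line derived from them. They were chosen by gene symbol from knowledge of the pathway, with no expression value in the rule. Earlier results of these data were known when they were chosen, so shares of members called are not independent of the data. All 44 symbols were found among the 57500 genes of the files. 22Rv1 is an established human prostate carcinoma line that expresses the androgen receptor. The parental group held 3 libraries of unmodified 22Rv1 cells, and the liver-derived group held 3 libraries of 22Rv1 cells that the labels describe as derived from a liver metastasis. Both groups were grown in RPMI-1640 medium with fetal bovine serum, and no interferon or other treatment is named for either. The labels do not name the host animal, the number of metastases or clones behind the liver-derived line, or separate derivations, so the liver-derived libraries may represent 1 derivation of the line. The design text names biological replicates, but it does not say that the libraries of a group came from separate cultures. The p-values therefore measure the spread between these libraries, which may be technical. The further condition mentioned in the design text was not analysed here.

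Interferons are secreted proteins that cells release after sensing viral nucleic acid. Type I interferons bind the IFNAR1 and IFNAR2 receptor chains, type II interferon binds IFNGR1 and IFNGR2, and type III interferons bind IFNLR1 with IL10RB. The receptors act through Janus kinases (JAK1, JAK2 and TYK2) that phosphorylate STAT proteins, and STAT2 takes part with IRF9 in ISGF3, a complex that binds the interferon-stimulated response element (ISRE) in the promoters of its target genes. The products of those genes sense viral RNA, block viral entry, replication or release, and attach the ubiquitin-like protein ISG15 to other proteins. Many epithelial tumours keep a low, lasting expression of such genes without added interferon.

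The libraries held 28395265 to 53275252 counts assigned to genes. Parental replicate 2 differed most from its group: over genes with a mean count of at least 50, the chi-square statistic per degree of freedom was 55.7 and 62.7 in its pairs, against 2.26 for the other parental pair and 2.43 to 3.15 among the liver-derived libraries. The defining markers of prostate and luminal epithelium were present in both groups, with a summed level of 3440 to 3600 CPM (read counts scaled to library size, TMM-normalised throughout) in the parental and 3280 to 3350 CPM in the liver-derived libraries. Of 10 leukocyte markers, 8 lay under 1 CPM in every library, CD3E, MS4A1 and FCGR3A were at 0 in every library, and none of the 5 tested passed the test. The summed leukocyte level was 11.8 to 15.9 CPM in parental and 12.7 to 21.3 CPM in liver-derived libraries, most of it LYZ (means of 11.9 and 12.9 CPM). Hepatocyte markers summed to 43.1 to 53.7 CPM in the parental and 65.3 to 68.7 CPM in the liver-derived libraries, most of it ALB (47.7 ± 6.06 and 65.8 ± 1.61 CPM). On the same list APOA1 rose and ASGR1 fell, from 1.47 ± 0.0714 to 0.178 ± 0.0409 CPM. Stromal and endothelial markers summed to 19.8 to 23.7 CPM and 20 to 20.7 CPM, most of it COL1A1, and LUM fell from 1.75 ± 0.245 to 0.0674 ± 0.0663 CPM. The part of these markers in the results below was not tested.

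Expression was tested for liver-derived against parental cells with edgeR's quasi-likelihood test on 19255 genes, and a gene is said to have risen or fallen where its p-value adjusted over all of them was under 0.05. Of the 44 interferon genes, 41 had enough counts to be tested. Among those, 10 rose and 11 fell in liver-derived cells, and 20 did not pass the test. The share called was 51.2%, beside 38.8% of all genes tested. Without parental replicate 2, the library that differed most from its group, the order of these shares turned round, to 57.1% of the members (24 of 42) beside 59.8% of all genes. Those 24 include OAS2, which the filter left out of the main test. With all 6 libraries, the share called higher was 24.4% beside 17.5% of all genes, and the share called lower 26.8% beside 21.3%. The median log2 fold change of the tested members was -0.07, and that of all tested genes was -0.01. The interferon genes therefore moved in both directions. A change of 2-fold or more was called for 6 members in the upward direction, beside 4.49% of all genes, and for 5 in the downward direction, beside 9.32%.

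The values of all 3 libraries of a group lay beyond those of the other group for 24 of the 41 members (58.5%), beside 54.0% of all tested genes. The liver-derived libraries lay above in 13 members, beside 26.1% of all genes, and below in 11, beside 27.9%. OAS2, GBP1 and XAF1, with at most 13 counts in any library, did not pass the low-count filter and were not tested. The filter asked for about 0.207 CPM in enough libraries: OAS2 exceeded that level in 2 libraries and the other two in none, while 34 of the tested members exceeded it in every library. OAS1, IFI27 and IFI44 exceeded it in all libraries of 1 group only, so counts over the tested members leave out some genes and favour others that are high in 1 group. In these bulk libraries, fewer cells that express a gene and less of its RNA per cell cannot be told apart.

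**Figure D1:**
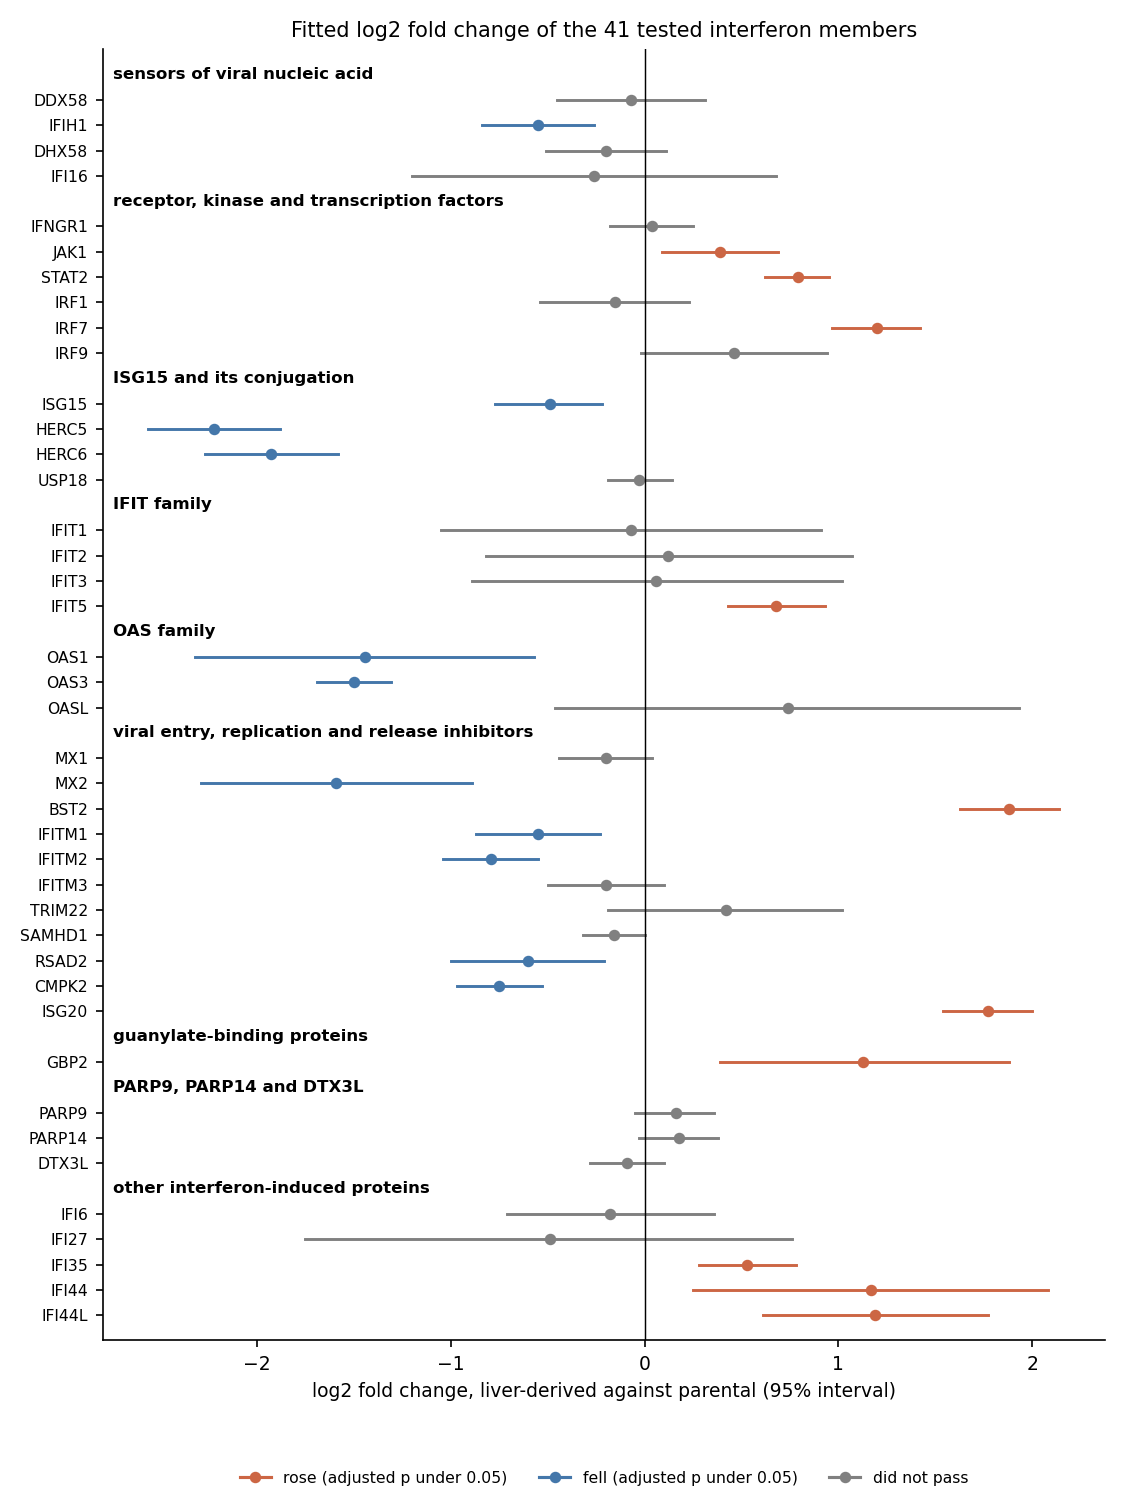
Fitted log2 fold change of each tested member (x axis, liver-derived against parental, with its 95% interval), grouped by role, coloured by whether it rose, fell or did not pass the test. BST2 and ISG20 lie farthest to the right and HERC5 and HERC6 farthest to the left, while the ISG15 group has no member that rose and the receptor and transcription factor group none that fell.

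The level of the members in each library was compared between genes as the authors' deposited TPM values, which take gene length into account. ISG15 was the most abundant member in both groups, with a mean of 472 TPM in parental and 327 TPM in liver-derived cells. IFITM3, which blocks the fusion of entering viruses, came next in parental cells at 61.1 TPM, and BST2 came next in liver-derived cells at 69.7 TPM. At the other end, 14 members lay under 1 TPM in all 6 libraries, among them IFIT1, IFIT2, IFIT3, OAS1, OAS2, IFI27, IFI44, IFI44L and MX2, which are often used to read an interferon response. A group of 11 members reached 10 TPM or more in all 6 libraries.

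**Figure D2:**
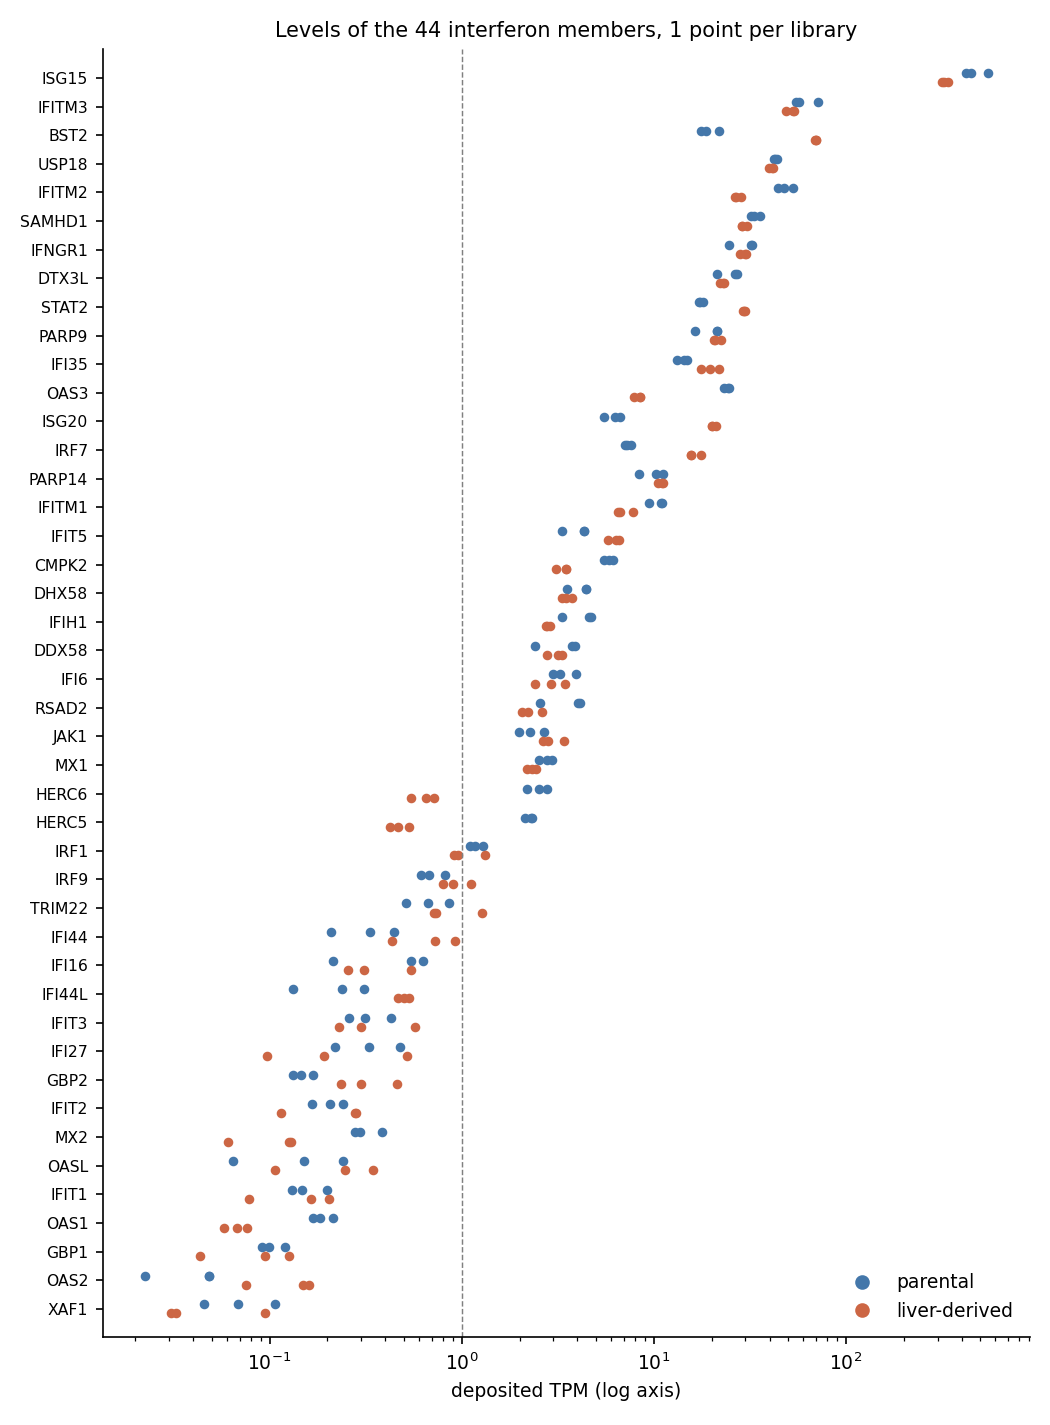
Deposited TPM of the 44 members (x axis, log scale) in each library, ordered by mean level, with parental libraries in blue and liver-derived libraries in orange; the dashed line marks 1 TPM. ISG15 stands above all others at 472 TPM in parental and 327 TPM in liver-derived cells, and the 14 members wholly to the left of the line include IFIT1, IFIT2 and IFIT3.

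The promoters of the members were searched for the response element because ISGF3 acts through it. RefSeq promoter windows on GRCh38.p14, from 250 bases before to 50 after each annotated start, were matched for 34 of the 44 members. The core of the element, GAAA, any 2 bases and GAAA again, was searched on both strands and occurred in 21 of these 34 (61.8%) and in 4.38% of the 27305 gene symbols in the table. The element was present in 5 of 8 matched members that rose, in 6 of 9 that fell and in 9 of 15 tested members that did not pass the test. A member counted if any of its windows held the element. For some members, only windows with a start far inside the gene model of the files held it. That start lay 12359 bases inside for ISG15, 11971 for RSAD2, 6677 for IFITM3, and 5900 and 5979 for IFI27. The element was thus found among members of every kind of outcome. A shorter form, GAAANNGA, which every match to the longer one also contains, occurred in 23 of the 34 members (67.6%) and in 23.9% of all symbols. The palindromic STAT site TTCNNNGAA occurred in 9 of the 34 (26.5%) and in 9.38% of all symbols, with 2 of 8 among members that rose and 2 of 9 among those that fell. A match is a description of the letters and does not show binding.

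The same element occurs in promoter windows of genes that moved in opposite directions. Stretches around it are printed for 3 members that rose (BST2, ISG20 and IFI44L) and 3 that fell (HERC5, OAS3 and RSAD2), all with values below. Each runs 5′ to 3′ on the strand of its gene, from RefSeq on GRCh38.p14, with the bases of every match to this core on either strand in capitals. Adjoining matches share their bases and print as 1 run. In HERC5 and RSAD2 the element lies on the opposite strand and reads as TTTC, any 2 bases and TTTC. The RSAD2 window belongs to a RefSeq start that lies 11971 bases inside the gene model of the files, and the ISG20 start lies 2863 bases inside its model. The other RSAD2 window, whose start lies 79 bases from that of the gene model, held the shorter form only.
BST2, chr19:17405725-17405780, minus strand: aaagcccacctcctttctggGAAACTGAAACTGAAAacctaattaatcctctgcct
ISG20, chr15:88638927-88638976, plus strand: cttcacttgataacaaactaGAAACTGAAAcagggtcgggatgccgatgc
IFI44L, chr1:78620264-78620404, plus strand: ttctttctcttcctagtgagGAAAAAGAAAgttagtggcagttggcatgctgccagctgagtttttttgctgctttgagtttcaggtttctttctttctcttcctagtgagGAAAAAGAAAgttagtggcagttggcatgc
HERC5, chr4:88456974-88457074, plus strand: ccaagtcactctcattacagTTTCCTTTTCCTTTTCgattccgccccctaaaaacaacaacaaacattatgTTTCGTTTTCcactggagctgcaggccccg
OAS3, chr12:112938311-112938491, plus strand: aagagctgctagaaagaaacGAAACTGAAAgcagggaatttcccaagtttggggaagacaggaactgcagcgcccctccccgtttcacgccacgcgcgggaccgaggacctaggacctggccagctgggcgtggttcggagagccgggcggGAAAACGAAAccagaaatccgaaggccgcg
RSAD2, chr2:6877612-6877661, plus strand: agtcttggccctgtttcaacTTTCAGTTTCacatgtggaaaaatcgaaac
The letters GAAACTGAAA occur in the elements of BST2 and ISG20, in 1 of the OAS3 elements and, on the opposite strand, in RSAD2.

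Interferon genes themselves were at or near the detection limit. Of 21 interferon ligand genes, 18 had no count in any of the 6 libraries. IFNE had 0 to 5 counts, IFNK 0 to 1 and IFNW1 0 to 2, and no ligand could be tested. A count of 0 allows up to 3 counts, which is 0.0563 to 0.106 CPM over the libraries, for counting error only.

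Of the 6 members that are receptors, kinases or transcription factors, STAT2, IRF7 and JAK1 rose (50%, beside 17.5% of all genes) and none fell, with a median log2 fold change of 0.43. Of 8 further receptor, kinase and STAT genes, none of them a member, 7 rose and none fell, with a median of 0.69, and 4 of the 7 lie on chromosome 21, where 56% of tested genes rose. IRF7, the transcription factor that amplifies type I interferon production (chromosome 11, 612553 to 615999, minus strand, GRCh38), measured 5.17, 5.80 and 5.02 CPM in parental replicates 1 to 3 and 11.7, 11.7 and 13.2 CPM in the liver-derived replicates. All liver-derived libraries were above all parental ones, from 5.33 ± 0.410 to 12.2 ± 0.867 CPM (SD, n = 3 each), a 2.29-fold rise (log2 fold change 1.20, SE 0.10, adjusted p = 1.95e-05).

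STAT2, the subunit that gives ISGF3 its activation domain (chromosome 12, 56341597 to 56360155, minus strand), measured 30.0, 30.9 and 28.2 CPM in parental and 51.4, 50.5 and 51.8 CPM in liver-derived libraries. The groups did not overlap, and the rise was 1.73-fold (log2 fold change 0.79, SE 0.07, adjusted p = 3.21e-05). IRF9, the DNA-binding subunit of the same complex, was low at 0.739 ± 0.0828 and 1.01 ± 0.175 CPM, and its log2 fold change of 0.46 did not pass the test (adjusted p = 0.119), although its groups did not overlap. IRF9 shares 48.4% of its exonic bases with the gene model AL136295.5 on the same strand, and reads there cannot be assigned to 1 of the genes from these files. IRF1, a factor induced by type II interferon, measured 2.59 ± 0.305 and 2.37 ± 0.494 CPM, with overlapping groups (adjusted p = 0.517).

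JAK1, the kinase that all interferon receptors use, rose by a log2 fold change of 0.39, from 4.01 ± 0.464 to 5.32 ± 0.677 CPM (adjusted p = 0.0425). That call is a weak one: it was kept in 6 of 17 alternative analyses. TYK2, the kinase paired with IFNAR1, rose by 0.42 on the log2 scale. JAK2, which serves the type II receptor, had a log2 fold change of -0.24 and did not pass the test (adjusted p = 0.157). STAT3, which many cytokines other than interferon also activate, rose by 0.64 on the log2 scale.

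The chains of the interferon receptors showed the largest rise of this group in IFNGR2, the signalling chain for type II interferon (chromosome 21, 33402896 to 33479348, plus strand). It measured 27.3 CPM in each parental library and 89.1, 96.0 and 92.5 CPM in the liver-derived ones, a 3.39-fold rise (log2 fold change 1.76, SE 0.07, adjusted p = 1.82e-07). The groups were far apart. Its partner IFNGR1, a member, stayed within its spread at 21.0 ± 2.31 and 21.6 ± 0.720 CPM. The 95% interval of its log2 fold change, -0.18 to 0.25, includes 0.

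IFNAR1 rose from 62.1 ± 7.12 to 109 ± 2.96 CPM (log2 fold change 0.81, adjusted p = 1.43e-04). IFNAR2 rose from 10.5 ± 0.506 to 17.6 ± 1.42 CPM (0.74 on the log2 scale, adjusted p = 2.15e-04). The chains for type III interferon, IFNLR1 and IL10RB, rose by log2 fold changes of 0.77 and 0.36. IFNAR1, IFNAR2, IFNGR2 and IL10RB are neighbours on chromosome 21, where the median log2 fold change of the 225 genes tested was 0.54 and 126 of them (56%) rose while 27 fell. Of these receptor chains, IFNAR1, IFNAR2 and IFNGR2 lay above that median and IL10RB below it, and the part of the chromosome-wide level in their rise was not tested. IFNGR2 shares 12.8% of its exonic bases with TMEM50B and IFNAR2 shares 39.1% with IL10RB-AS1, both on the opposite strand. The strand setting of the counting is not given in the sources used here.

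**Figure D3:**
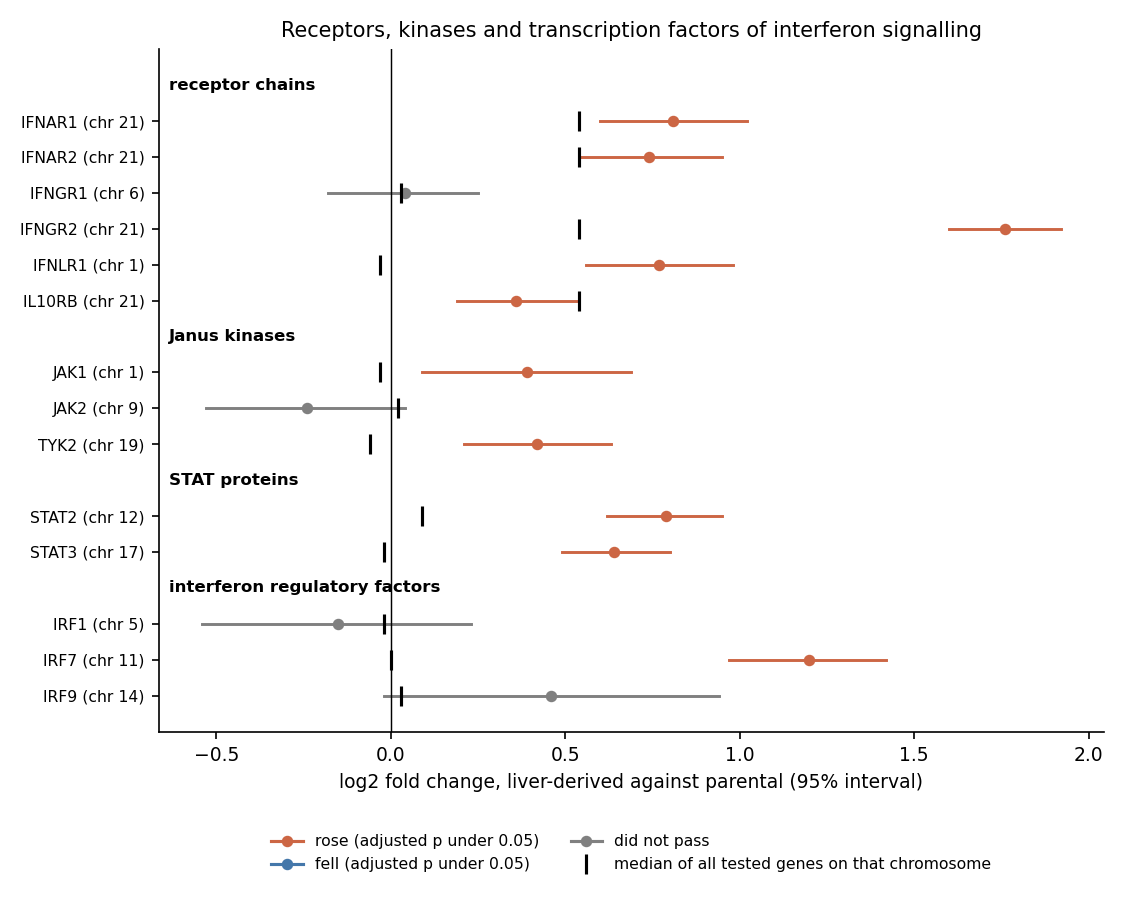
Fitted log2 fold change (x axis, with its 95% interval) of the receptor chains, Janus kinases, STAT proteins and IRF transcription factors, with a black tick for the median of all tested genes on the same chromosome. IFNGR2 lies far to the right of its chromosome 21 tick at 0.54, and IL10RB lies to the left of it. The intervals of IFNGR1, JAK2, IRF1 and IRF9 include 0.

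Among the sensors of viral nucleic acid, 1 of 4 members fell (25%, near the 21.3% of all genes) and none rose. IFIH1, which encodes the MDA5 sensor of long double-stranded RNA, fell from 5.28 ± 0.755 to 3.61 ± 0.106 CPM (log2 fold change -0.55, adjusted p = 0.00848). DDX58, which encodes RIG-I, measured 4.01 ± 0.848 and 3.84 ± 0.357 CPM, and DHX58, which encodes their regulator LGP2, 4.42 ± 0.685 and 3.86 ± 0.250 CPM. The groups overlapped for both and for IFI16, a DNA sensor under 1 CPM in every library. None of these 3 passed the test.

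Of 4 members of the ISG15 conjugation group, ISG15, HERC5 and HERC6 fell and USP18 did not pass the test, so that 75% were called lower beside 21.3% of all genes. HERC5, the main ligase that attaches ISG15 to new proteins (chromosome 4, 88457117 to 88506163, plus strand), measured 2.99, 2.95 and 2.94 CPM in parental libraries and 0.574, 0.716 and 0.639 CPM in liver-derived ones. The groups were far apart, and the fall from 2.96 ± 0.0239 to 0.643 ± 0.0708 CPM was 4.66-fold (log2 fold change -2.22, SE 0.15, adjusted p = 4.76e-06). HERC6, its neighbour and relative (88378739 to 88443111, plus strand), measured 3.99, 3.68 and 4.32 CPM against 0.900, 1.07 and 1.19 CPM, again without overlap. It fell 3.80-fold (log2 fold change -1.93, SE 0.15, adjusted p = 1.43e-05).

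ISG15 itself (chromosome 1, 1001138 to 1014541, plus strand) measured 114, 150 and 107 CPM in parental and 86.8, 84.8 and 91.7 CPM in liver-derived libraries. All liver-derived values were below all parental ones, and parental replicate 2 was the highest. The fall was 1.41-fold (log2 fold change -0.49, SE 0.12, adjusted p = 0.0109), and it was lost without liver-derived replicate 2 (adjusted p = 0.0544). USP18, the protease that removes ISG15 and also restrains the type I receptor, measured 25.4, 26.0 and 24.5 CPM against 25.3, 24.1 and 25.0 CPM, with overlapping groups. Its log2 fold change was -0.03 with a 95% interval of -0.19 to 0.14.

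The remaining steps of conjugation were read from non-members picked for this role after their values were seen. UBE2L6, the E2 enzyme that carries ISG15 to the ligase, measured 1.94, 2.18 and 2.26 CPM in parental and 0.881, 0.931 and 0.824 CPM in liver-derived libraries. It fell 2.43-fold without overlap (log2 fold change -1.28, SE 0.16, adjusted p = 1.95e-04). UBA7, the E1 enzyme that activates ISG15, was low at 0.436 ± 0.122 and 0.556 ± 0.115 CPM and did not pass the test (adjusted p = 0.437).

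**Figure D4:**
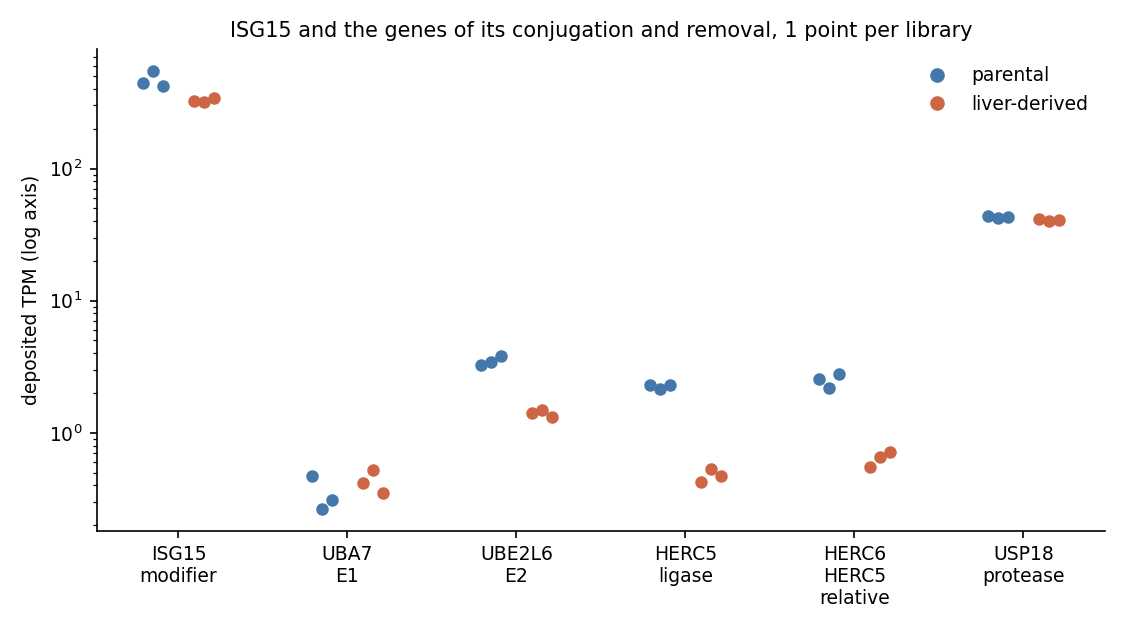
Deposited TPM (y axis, log scale) of ISG15 and the genes that activate (UBA7), carry (UBE2L6), attach (HERC5, with its relative HERC6) and remove it (USP18), 1 point per library. HERC5, HERC6 and UBE2L6 points of the 2 groups are well apart with the liver-derived ones lower, while UBA7 points overlap.

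Of the RNA-binding IFIT proteins, which hold back foreign RNA, IFIT5 was the 1 of 4 members that rose (25%, beside 17.5% of all genes). It went from 4.43 ± 0.460 to 7.12 ± 0.450 CPM (log2 fold change 0.68, adjusted p = 0.00127). IFIT1, IFIT2 and IFIT3 had mean levels of 0.195 to 0.276 CPM in both groups, with log2 fold changes of -0.07, 0.12 and 0.06. Their intervals are wide, from -1.05 to 0.91 for IFIT1, so they leave room for changes of up to about 2-fold. The levels of these 3 overlapped between the groups.

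The OAS enzymes make short oligoadenylates that activate RNase L after binding double-stranded RNA. OAS3 (chromosome 12, 112938352 to 112973249, plus strand) measured 54.5, 59.1 and 51.3 CPM in parental and 20.0, 20.0 and 18.5 CPM in liver-derived libraries. It fell 2.82-fold without overlap (log2 fold change -1.50, SE 0.08, adjusted p = 1.68e-06). OAS1, next to it, was called lower from 0.258 ± 0.0294 to 0.0952 ± 0.0125 CPM (log2 fold change -1.44, adjusted p = 0.0159), a call on few counts that 8 of 14 alternatives kept. OAS2, from the same gene cluster, had 4, 4 and 2 counts in parental and 7, 8 and 13 counts in liver-derived libraries, the opposite order, and was not tested. OASL, a relative without synthase activity, had a log2 fold change of 0.74 with overlapping groups (adjusted p = 0.305).

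Among 11 members that inhibit viral entry, replication or release, 2 rose (18.2%, near the 17.5% of all genes) and 5 fell (45.5%, beside 21.3%). BST2, or tetherin, which holds budding virus at the cell surface (chromosome 19, 17402939 to 17405648, minus strand), measured 5.37, 7.10 and 5.61 CPM in parental and 22.1, 22.2 and 22.4 CPM in liver-derived libraries. The groups were far apart, and the rise from 6.03 ± 0.933 to 22.2 ± 0.175 CPM was 3.69-fold (log2 fold change 1.88, SE 0.11, adjusted p = 2.57e-06). ISG20, an exonuclease that degrades viral RNA (chromosome 15, 88636153 to 88656483, plus strand), measured 11.0, 14.3 and 12.4 CPM against 42.2, 42.3 and 44.2 CPM. It rose 3.41-fold, also without overlap (log2 fold change 1.77, SE 0.10, adjusted p = 2.16e-06).

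MX2, a dynamin-like GTPase that blocks viral nuclear entry (chromosome 21, 41361943 to 41409390, plus strand), was low at 0.988, 1.45 and 1.04 CPM in parental and 0.479, 0.465 and 0.227 CPM in liver-derived libraries. It fell 3.01-fold without overlap (log2 fold change -1.59, SE 0.31, adjusted p = 0.00329). Its neighbour MX1, a cytoplasmic GTPase with wide antiviral action, measured 6.57 ± 0.631 and 5.68 ± 0.316 CPM and did not pass the test (log2 fold change -0.20, adjusted p = 0.167). Both lay below the chromosome 21 median of 0.54, unlike the receptor chains IFNAR1, IFNAR2 and IFNGR2.

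CMPK2, a mitochondrial nucleotide kinase, fell from 6.94 ± 0.139 to 4.11 ± 0.305 CPM (log2 fold change -0.75, adjusted p = 3.02e-04). Its neighbour RSAD2, or viperin, which makes a chain-terminating nucleotide, measured 5.27, 3.59 and 5.37 CPM in parental and 3.04, 3.62 and 2.84 CPM in liver-derived libraries. The groups overlapped through parental replicate 2, and the log2 fold change of -0.60 passed the test (adjusted p = 0.0233), in 10 of 17 alternatives as well. The IFITM proteins sit in endosomal and surface membranes and block viral fusion. IFITM2 fell from 20.7 ± 2.82 to 12.0 ± 0.423 CPM (log2 fold change -0.79, adjusted p = 4.37e-04) and IFITM1 from 3.13 ± 0.351 to 2.16 ± 0.211 CPM (-0.55, adjusted p = 0.0128). IFITM3 measured 22.9 ± 4.48 and 19.9 ± 1.07 CPM and did not pass the test (log2 fold change -0.20, adjusted p = 0.271). These genes are close in sequence, and the models of IFITM1 and IFITM2 share 351 exonic bases on the same strand, so how their reads were divided is uncertain. SAMHD1, which depletes nucleotides needed by viruses, had a log2 fold change of -0.16 (adjusted p = 0.109), and TRIM22, a ubiquitin ligase, of 0.42 (adjusted p = 0.252).

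**Figure D5:**
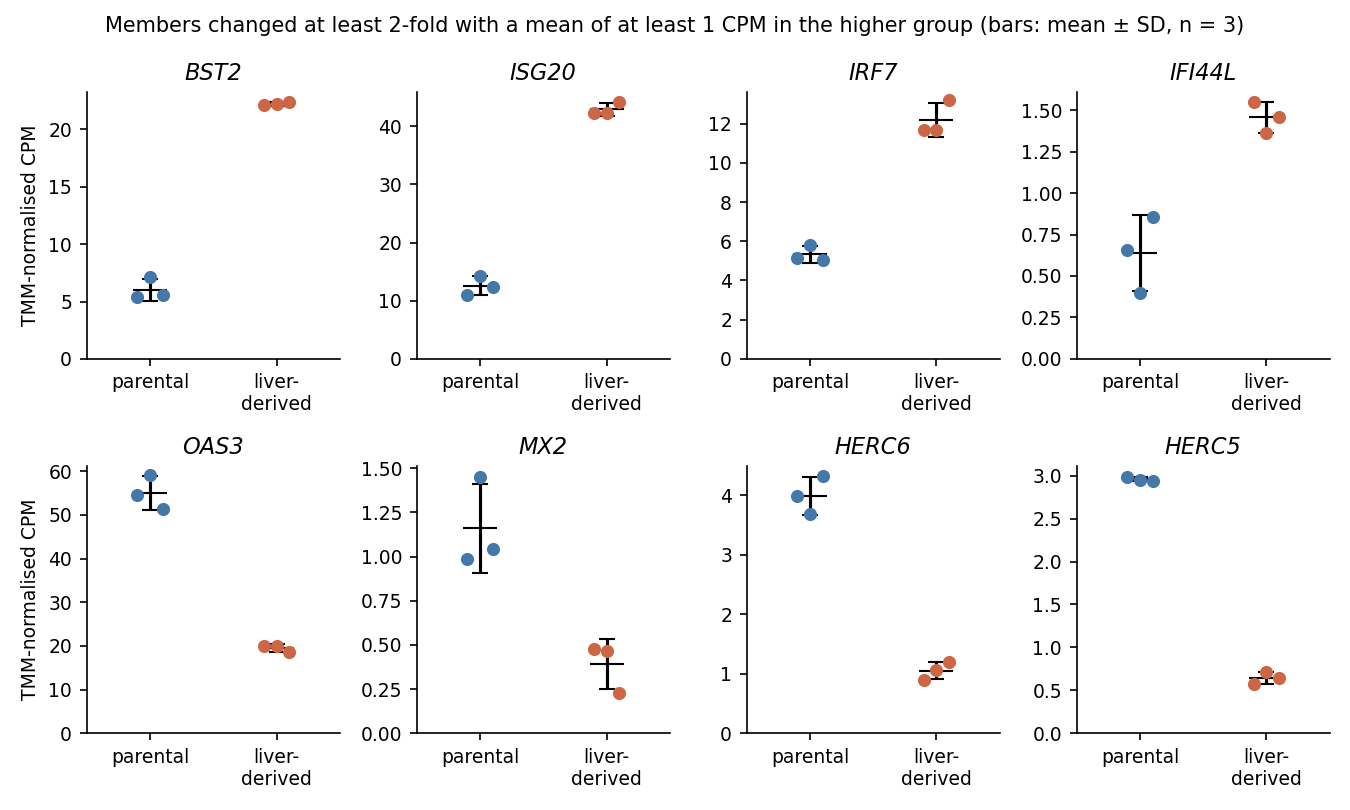
CPM (y axis, TMM-normalised) in each library for the 8 members that changed at least 2-fold with a mean of at least 1 CPM in the higher group, with the mean and SD (n = 3). BST2, ISG20, IRF7 and IFI44L are higher in every liver-derived library and OAS3, MX2, HERC6 and HERC5 lower in every one.

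PARP9, PARP14 and DTX3L, which act together in ADP-ribosylation and ubiquitination, gave no call in 3 tested. Their log2 fold changes were 0.16, 0.18 and -0.09, with 95% intervals that stayed between -0.28 and 0.38. Of the other interferon-induced proteins, 3 of 5 tested rose (60%, beside 17.5% of all genes) and none fell. Among those that rose, IFI44 exceeded the low-count filter in every library of the liver-derived group only. IFI44L, a relative of IFI44 (chromosome 1, 78619922 to 78646145, plus strand), measured 0.659, 0.397 and 0.853 CPM in parental and 1.55, 1.36 and 1.46 CPM in liver-derived libraries. The groups did not overlap, and it rose 2.28-fold (log2 fold change 1.19, SE 0.26, adjusted p = 0.00565).

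IFI44, beside it, rose by a log2 fold change of 1.17 from 0.186 ± 0.0674 CPM (adjusted p = 0.0469), a call kept in 5 of 14 alternatives. IFI35, a leucine zipper protein that binds NMI, rose from 7.73 ± 0.646 to 11.1 ± 1.22 CPM (0.53 on the log2 scale, adjusted p = 0.00480). IFI6 and IFI27, small mitochondrial proteins, measured under 1 CPM in every library and did not pass the test. Of the guanylate-binding proteins, GTPases that attack intracellular microbes, GBP2 rose from 0.258 ± 0.0230 to 0.593 ± 0.207 CPM (log2 fold change 1.13, adjusted p = 0.0236), kept in 9 of 14 alternatives.

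Position along the chromosome was then compared, since many members arose by local duplication. With a limit of 500 kb between starts, 24 members fell into 9 clusters. HERC6 and HERC5 had log2 fold changes of -1.93 and -2.22, OAS1 and OAS3 of -1.44 and -1.50, CMPK2 and RSAD2 of -0.75 and -0.60, and IFI44L and IFI44 of 1.19 and 1.17. In these 4 pairs both neighbours were called in the same direction, but OAS1 and IFI44 exceeded the low-count filter in every library only in the group where they were higher, and their calls were kept in 8 and 5 of 14 alternatives. The rate for neighbouring genes in general was not computed. The cluster on chromosome 11 held IRF7, which rose, beside IFITM1 and IFITM2, which fell. The IFIT cluster on chromosome 10 held IFIT5, which rose, beside 3 genes that did not pass the test. Neighbours are not independent measurements.

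Beyond the members, a list of 114 further genes of the pathway gave 79 that were tested, of which 23 rose, 13 fell and 43 did not pass the test. The median log2 fold change was 0.11 and the share called 45.6%, beside 38.8% of all genes. This list, like the members, was chosen with earlier results of these data known. Of 43 tested interferon-stimulated genes on that list, 11 rose (25.6%, beside 17.5% of all genes) and 9 fell (20.9%, near the 21.3% of all genes). NMI, the binding partner of IFI35, rose from 0.411 ± 0.274 to 2.25 ± 0.225 CPM (log2 fold change 2.42, adjusted p = 7.08e-04). TDRD7, a Tudor domain protein that restrains virus-induced autophagy, rose from 18.7 ± 0.735 to 67.9 ± 1.91 CPM (1.86 on the log2 scale). HELZ2, a helicase that acts as a nuclear receptor coactivator, rose from 18.6 ± 3.24 to 53.9 ± 1.60 CPM (1.54 on the log2 scale). In the other direction, LY6E, a lipid-anchored protein of the cell surface, went from 11.6 ± 1.36 to 1.61 ± 0.255 CPM and so fell 7.28-fold (log2 fold change -2.86, adjusted p = 1.05e-06). C19orf66, an inhibitor of ribosomal frameshifting, fell from 3.22 ± 0.249 to 0.728 ± 0.0128 CPM (log2 fold change -2.14, adjusted p = 4.89e-06).

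Of 13 restraints of interferon signalling, 1 rose and 3 fell, a share called of 30.8% that does not exceed the 38.8% of all genes. SOCS3, which blocks Janus kinases, fell from 1.11 ± 0.0763 to 0.453 ± 0.185 CPM (log2 fold change -1.21, adjusted p = 0.00692). PIAS3, a SUMO ligase that inhibits STAT3, fell from 82.3 ± 5.32 to 47.2 ± 0.517 CPM (log2 fold change -0.80). CISH, a SOCS relative, fell by 0.58 on the log2 scale, and IRF2, an antagonist of IRF1, rose by 0.40.

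Of 15 tested genes that lead from nucleic acid sensing to interferon production, 4 rose and 1 fell, a share called of 33.3%, also under that of all genes. RNF135, the ubiquitin ligase that activates RIG-I, rose from 16.7 ± 0.283 to 27.9 ± 1.23 CPM (log2 fold change 0.74, adjusted p = 6.29e-05). The kinase TBK1, the adaptor MAVS and the signalling ligase TRAF3 rose by log2 fold changes of 0.40, 0.29 and 0.31. Their adjusted p-values were 0.0425, 0.0139 and 0.0136, and the calls were kept in 10, 12 and 15 of 17 alternatives. IRF5, a transcription factor of inflammatory genes, fell by 0.43 on the log2 scale.

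Because parental replicate 2 differed from its group, the members were also counted without it. Then 11 rose and 13 fell, all 21 earlier calls among them, and DTX3L, OAS2 and SAMHD1 were added. OAS2, which the main filter left out, exceeded its level in 2 liver-derived libraries and in no parental one. It therefore entered this count through the group where it was higher. The share of all genes called rose more than that of the members, to 59.8% beside 57.1%. Over every alternative in which they were tested, 11 of the 21 called members kept their call, and all 21 kept their direction.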

How the data were processed

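RNA of 6 libraries was extracted with an RNeasy kit, polyA-selected with a TruSeq kit and sequenced as paired reads on a NovaSeq, per the labels' protocols. The submitters' processing notes name Trimmomatic 0.36, STAR 2.5.2b, featureCounts of Subread 1.5.2 and GRCh38; annotation release, strand setting and treatment of multi-mapped reads were not given in the sources used here. The deposited count files hold whole-number read counts per gene, 28395265 to 53275252 per library. The authors' deposited TPM table was used for levels between genes. TPM recomputed from the counts matched it within a relative tolerance of 0.0001, and 391182 rows of that table without a gene were dropped. In the TPM column of parental replicate 2, which was declared with the unit other, the deposited spreadsheet holds division errors in the rows without a gene.

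After the filterByExpr filter and TMM scaling, edgeR 4.0.16 (quasi-likelihood, robust, R 4.3.3) compared liver-derived with parental libraries without a replicate block. P-values were adjusted by Benjamini-Hochberg over 19255 genes, and adjusted p under 0.05 was the threshold. The biological coefficient of variation was 9.57%. The script was first tested on simulated counts. Alternatives were other scalings and filters, DESeq2 1.42.0, limma-voom (limma 3.58.1), limma on log2(TPM + 1) and log2(TPM + 0.1), a replicate block and leaving out each library. Values in all libraries are given for called members that changed 2-fold or more and averaged 1 CPM or more in 1 of the groups, and for a few others. From each list of non-members the text names up to 5 called genes, ranked by size of change among those reaching that level, and the further receptor, kinase and STAT genes. A pathway gene is not reported here and was left out of the lists. UBE2L6, UBA7 and the opposite order of OAS2 were picked after their values were seen. The members and lists were chosen with earlier results of these data known.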

Additional observations from a re-analysis of the deposited data

How the results depend on the processing

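With another scaling, filter or tool for counts (RLE, upper-quartile or library size alone, no filter, at least 1 CPM in 3 libraries, DESeq2, limma-voom), at least 17 of the 21 called members kept their call. The calls that depended on the analysis were those on few counts or small changes (IFI44, JAK1, OAS1, GBP2 and RSAD2 most often). With limma on deposited TPM, 6 members were higher under each of log2(TPM + 1), log2(TPM + 0.1) and log2(TPM + 1) without a filter, and 7 were lower without a filter. Leaving out 1 library gave 7 to 11 members higher and 8 to 13 lower, 18 to 35 further pathway genes higher and 10 to 18 lower, and 2432 to 5714 of all genes higher and 3168 to 6156 lower; the highest of each came without parental replicate 2, and the cause was not tested. The share of members called lay above that of all genes in each of the 17 alternatives except without parental replicate 2 (57.1% beside 59.8%). No member that was called changed direction in any of the 17 alternatives. With a replicate block, 8 members were higher and 11 lower. Deviations of libraries with the same number correlated at -0.008, 0.009 and 0.072, and parental replicate 1 correlated more with liver-derived replicate 2 (0.023), so the numbers were not taken as pairs. Depth limits the members under 1 CPM, whose intervals span 2-fold or more.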

Other observations

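Some further interferon-induced genes had too few counts to be tested. CXCL10, a chemokine, had 1 count in parental replicate 1 and 1 in liver-derived replicate 3, with 0 in the other libraries. GBP5, a guanylate-binding protein, had 3, 16 and 8 counts in parental and 3, 1 and 3 in liver-derived libraries. BATF2, a transcription factor induced by interferon, had 9, 10 and 15 counts in parental and 2, 1 and 2 in liver-derived libraries. They were picked after their values were seen.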
